A study of Solanum tuberosum with 6 samples.

Results

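Phenylpropanoids are plant compounds built from the amino acid phenylalanine, and they include lignin, flavonoids and many phenolic acids. Phenylalanine ammonia-lyase (PAL) opens the pathway by removing ammonia from phenylalanine to give cinnamic acid, and trans-cinnamate 4-monooxygenase (CYP73A, also called cinnamate 4-hydroxylase) turns cinnamic acid into p-coumaric acid. The next enzyme, 4-coumarate:CoA ligase (4CL), activates p-coumaric acid, from which the lignin and flavonoid branches divide. Transcription of PAL and CYP73A genes is known to respond to stress in many plants. The genes described here are 4 of the 114281 genes in the deposited count table. They are StPAL (Soltu.Atl.09_2G005110) and 3 copies of StCYP73A, namely the genes Soltu.Atl.06_4G021440 and, beside it, Soltu.Atl.06_4G021450, and a gene of another chromosome copy, Soltu.Atl.06_1G015640. The study named these 4 genes as upregulated by cold in the cultivars Atlantic and KY140. Its screen for genes with a proposed part in cold resistance also asked for a higher log2FC in Atlantic than in KY140. The cold response of the 4 genes in those cultivars is thus what chose them. It is given as a description, without p-values. KY130 is the cultivar that this choice did not use, and it is the one in which the cold response was tested.

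Leaves of virus-free potato (Solanum tuberosum) tissue culture seedlings, grown for 18 days on MS medium under about 2500 lx of light for 16 h per day, were sampled after 12 h at 25°C (groups Atlantic, KY130 and KY140) or 12 h of cold stress (CS) at −4°C (groups CS-Atlantic, CS-KY130 and CS-KY140). All plants were labelled wild type, and the study gives Atlantic as cold-resistant and KY140 as cold-sensitive, while the resistance of KY130 is not given in the sources used here. The titles of the treated records give −4°C and their treatment field gives 12°C, and the temperature of the titles and of the study is used. Each group had 3 libraries of poly(A) RNA, 18 in all, which the study's methods call biological replicates, and whether each was exposed to cold separately is not stated.

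Library totals ran from 11047494 to 14971945 counts, and 45305 to 74628 genes had at least 1 count. KY140 replicate 1 had the fewest detected genes, with r of 0.837 to 0.853 to the other untreated KY140 libraries on log2(CPM + 1), and CS-KY130 replicate 1 had the fewest of the KY130 libraries (50417), with r of 0.859 to 0.869 to its own group. CS-KY130 replicate 3 was closer to an untreated KY130 library (r = 0.921) than to its own group (r of at most 0.9), and KY140 replicate 2 was likewise closer to a treated KY140 library (r = 0.931) than to its own group (r of at most 0.911). The biological coefficient of variation, the spread between replicates beyond counting error, was 56.1% in Atlantic, 81% in KY130 and 82.6% in KY140. The identifiers are not paired with gene names, so leaf markers could not be checked.

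The 4 identifiers place the genes on separately numbered chromosome copies of an annotation of the cultivar Atlantic. StPAL carries a number of chromosome 9 (copy 2), and the CYP73A genes carry numbers of chromosome 6, a pair with consecutive identifiers on copy 4 (06_4G021440 and 06_4G021450) and a single gene on copy 1 (06_1G015640). How reads shared by near-identical copies were counted is not given in the sources used here, so the value of a single copy is uncertain, and the 3 CYP73A copies are also given as a sum, which does not depend on how reads were divided among them. The sum covers only these 3 copies and is not a total of CYP73A. Likewise StPAL is 1 gene, the study describes PAL as a gene family, and its level is not a total of PAL. Reads shared with any other copy, or left uncounted, could still change the sum and the shares. In KY130 and KY140, a low value can mean that a copy is little expressed or that the cultivar's own sequence fits that Atlantic copy poorly, and these cannot be told apart. Each level is a CPM value, the gene's counts as a fraction of the library's total after TMM adjustment over the 18 libraries, on the usual per-megacount scale. Gene lengths were not used, so levels are compared between groups and not between genes. Counts of the 4 genes ranged from 35 (StPAL in KY130 replicate 2) to 4403 (06_4G021450 in CS-Atlantic replicate 2), and all 4 passed the filter on low counts in every cultivar.

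**Figure D1:**
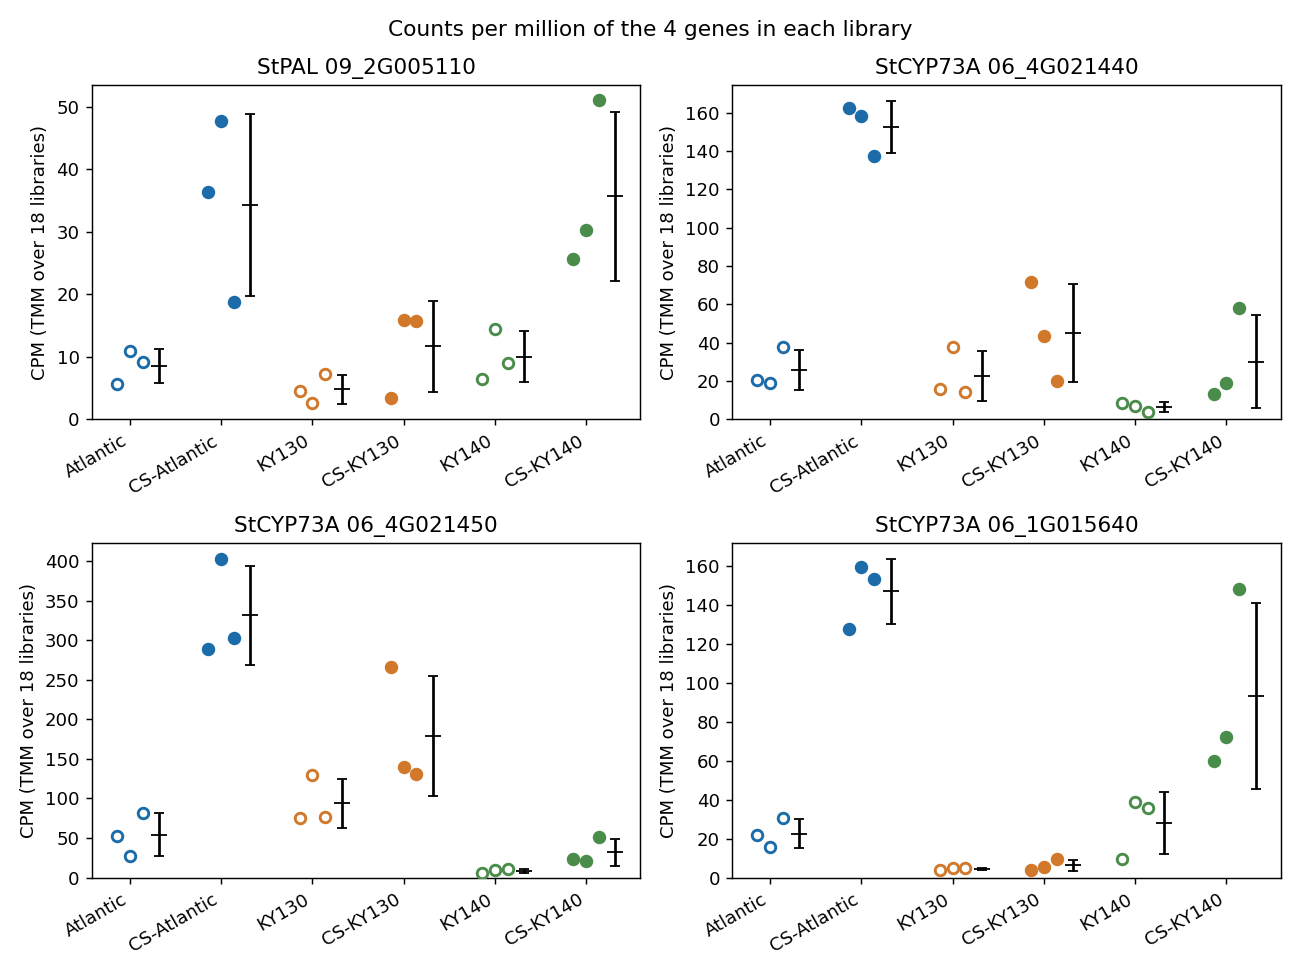
CPM of StPAL and of the 3 StCYP73A copies in the 18 libraries, 1 panel per gene, with open circles for 25°C, filled circles for −4°C, libraries in the order of their replicate numbers, and a bar for mean ± SD over 3 libraries beside each group. The copy 06_1G015640 stays between 3.80 and 9.67 CPM in all 6 KY130 libraries, while its CS-Atlantic libraries reach 127.7 to 159.4 CPM.

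StPAL, the enzyme of the first step, stood higher after cold in Atlantic and KY140, and in KY130 2 of the 3 treated libraries stood above all untreated ones while the third did not. Untreated Atlantic libraries had 5.61, 10.9 and 9.24 CPM of StPAL, and CS-Atlantic libraries had 36.3, 47.7 and 18.7 CPM. The lowest treated library was above the highest untreated one, and the means were 8.57 ± 2.69 and 34.2 ± 14.6 CPM (SD, n = 3), a ratio of 3.995. In KY140 the values of StPAL were 6.45, 14.5 and 9.04 CPM at 25°C and 25.7, 30.2 and 51.0 CPM after cold. These groups also did not overlap, with means of 9.99 ± 4.10 and 35.6 ± 13.5 CPM and a ratio of 3.57. In leaf RNA, a higher value can come from more cells of a type or from more RNA per cell, and these cannot be told apart.

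KY130 had the lowest untreated mean of StPAL, with a range that overlapped that of Atlantic. Its untreated libraries had 4.54, 2.68 and 7.22 CPM of StPAL, and its treated libraries had 3.34, 15.9 and 15.7 CPM. The groups overlapped through CS-KY130 replicate 1, the library with the fewest detected genes in this cultivar, which lay below 2 of the 3 untreated libraries. The means were 4.81 ± 2.28 and 11.7 ± 7.20 CPM (SD, n = 3), a ratio of 2.42. Among the 6 groups, CS-KY140 and CS-Atlantic had the highest mean StPAL levels and their ranges overlapped. A gap separated them from CS-KY130, KY140, Atlantic and KY130, in which every neighbour in the order overlapped the next.

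The gene 06_4G021440, the first of the adjacent CYP73A pair, had its highest level in CS-Atlantic and its lowest in KY140. Atlantic libraries had 20.7, 19.0 and 37.5 CPM of this copy at 25°C and 162.5, 158.3 and 137.2 CPM after cold. The treated Atlantic libraries lay close together (SD of 13.6 CPM around a mean of 152.7 CPM, n = 3), 5.93 times the untreated mean of 25.8 ± 10.3 CPM. For the same copy, KY140 libraries had 8.70, 7.20 and 3.70 CPM at 25°C and 13.1, 19.2 and 58.1 CPM after cold. Treated KY140 libraries were all above the untreated ones, with CS-KY140 replicate 3 well above the others, and the group mean was 30.1 ± 24.4 CPM, 4.61 times the untreated mean of 6.53 ± 2.57 CPM. KY130 libraries had 15.6, 37.5 and 14.4 CPM of 06_4G021440 at 25°C and 71.4, 43.4 and 20.1 CPM after cold. Here the groups overlapped, because KY130 replicate 2 lay above CS-KY130 replicate 3, and the means were 22.5 ± 13.0 and 45.0 ± 25.7 CPM, a ratio of 1.997.

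The second gene of the pair, 06_4G021450, had its highest level in CS-Atlantic, followed by CS-KY130, and its lowest in KY140. In Atlantic it had 52.6, 27.7 and 82.0 CPM at 25°C and 288.3, 402.7 and 303.0 CPM after cold. No treated library came near the untreated ones, and the means were 54.1 ± 27.2 and 331.3 ± 62.3 CPM (SD, n = 3), a ratio of 6.12. In KY130 this copy had 75.1, 129.2 and 77.0 CPM at 25°C and 266.2, 139.8 and 130.6 CPM after cold. It was the only one of the 4 genes whose KY130 groups did not overlap, by a gap between 129.2 and 130.6 CPM, and its means were 93.8 ± 30.7 and 178.9 ± 75.8 CPM, a ratio of 1.91. In KY140 it had 5.52, 9.28 and 10.5 CPM at 25°C and 24.0, 20.6 and 51.2 CPM after cold. The treated KY140 mean of 31.95 ± 16.8 CPM was 3.80 times the untreated mean of 8.42 ± 2.58 CPM, and it was below the untreated means of KY130 and Atlantic, with overlap between the ranges of CS-KY140 and Atlantic. Untreated KY130 had 11.1 times the mean level of untreated KY140 for this copy, without overlap.

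The single copy 06_1G015640 showed the opposite order of the KY cultivars. Atlantic libraries had 21.7, 15.5 and 30.6 CPM of it at 25°C and 127.7, 159.4 and 153.0 CPM after cold. The means were 22.6 ± 7.55 and 146.7 ± 16.8 CPM (SD, n = 3), with a ratio of 6.50 and no overlap. KY140 libraries had 9.48, 38.6 and 35.6 CPM of 06_1G015640 at 25°C and 59.6, 71.9 and 147.9 CPM after cold. KY140 replicate 1, the library with the fewest detected genes, gave the lowest value, and the means were 27.9 ± 16.0 and 93.1 ± 47.8 CPM, a ratio of 3.34.

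In KY130 the copy 06_1G015640 stayed low in both conditions. The untreated libraries had 3.80, 4.82 and 4.79 CPM and the treated ones 4.13, 5.196 and 9.67 CPM, which rest on 46 to 110 counts per library. The groups overlapped, and the means were 4.47 ± 0.581 and 6.33 ± 2.94 CPM (SD, n = 3), a ratio of 1.42. After cold, the mean of this copy was 23.2 times as high in CS-Atlantic as in CS-KY130 and 14.7 times as high in CS-KY140 as in CS-KY130, in both cases without overlap of the libraries.

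**Figure D2:**
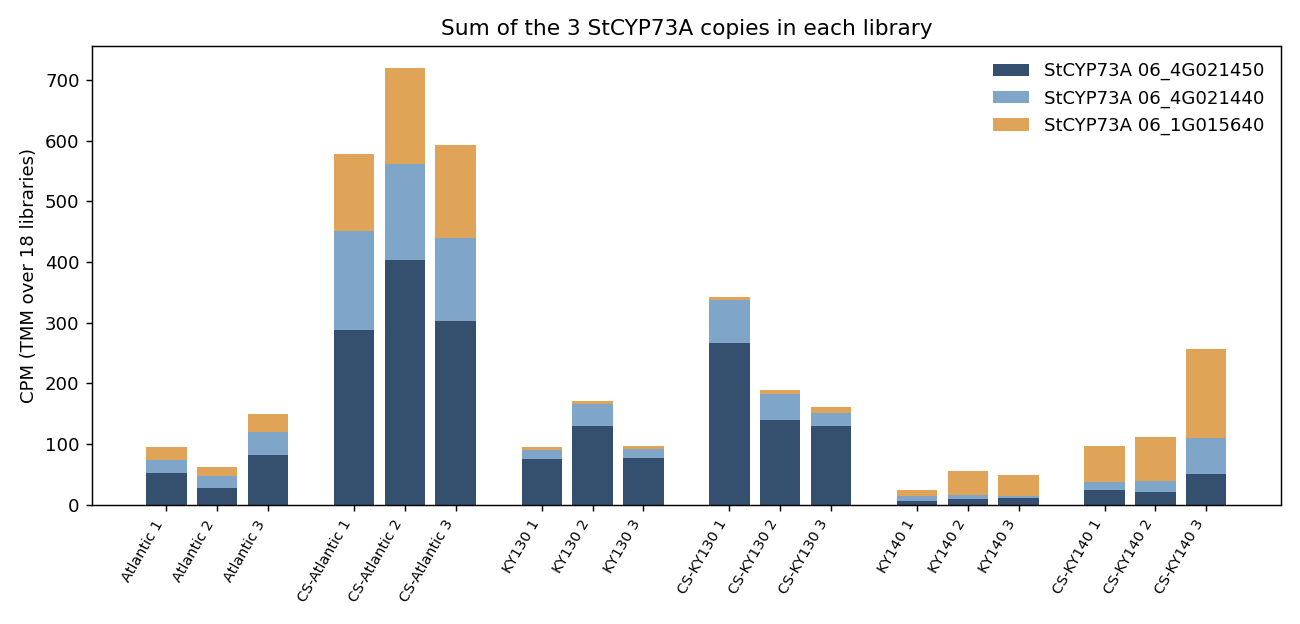
Sum of the 3 StCYP73A copies in each of the 18 libraries, as stacked bars of CPM with 1 colour per copy. The CS-Atlantic bars reach 578.5 to 720.5 CPM, the CS-KY130 bars are nearly all 06_4G021450 and 06_4G021440, and the CS-KY140 bars are mostly 06_1G015640.

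Added up, the 3 CYP73A copies gave 95, 62.2 and 150.1 CPM in the untreated Atlantic libraries and 578.5, 720.5 and 593.2 CPM in the CS-Atlantic libraries. The mean sum was thus 102.4 ± 44.4 CPM at 25°C and 630.7 ± 78.1 CPM after cold (SD, n = 3), a ratio of 6.16. That ratio ranged from 5.15 without Atlantic replicate 2 to 8.02 without Atlantic replicate 3. In KY140 the sums were 23.7, 55.1 and 49.8 CPM at 25°C and 96.7, 111.6 and 257.1 CPM after cold. The KY140 groups did not overlap, with means of 42.8 ± 16.8 and 155.2 ± 88.6 CPM and a ratio of 3.62, which was 2.43 without CS-KY140 replicate 3.

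The KY130 sums were 94.5, 171.6 and 96.2 CPM at 25°C and 341.8, 188.3 and 160.4 CPM after cold. A treated library was the higher one in 8 of the 9 pairs of a treated and an untreated library, and the exception was CS-KY130 replicate 3 against KY130 replicate 2. The means were 120.8 ± 44.0 and 230.2 ± 97.6 CPM, a ratio of 1.91, which fell to 1.44 without CS-KY130 replicate 1 and rose to 2.41 without KY130 replicate 2. At 25°C the sums of KY130 and Atlantic overlapped and both stood above KY140. After cold, every CS-Atlantic sum was above every other library, while CS-KY130 and CS-KY140 overlapped, and the CS-Atlantic mean was 2.74 times that of CS-KY130 and 4.07 times that of CS-KY140. A score over these chosen genes is given without a test, and the choice favoured a larger rise in Atlantic than in KY140.

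**Figure D3:**
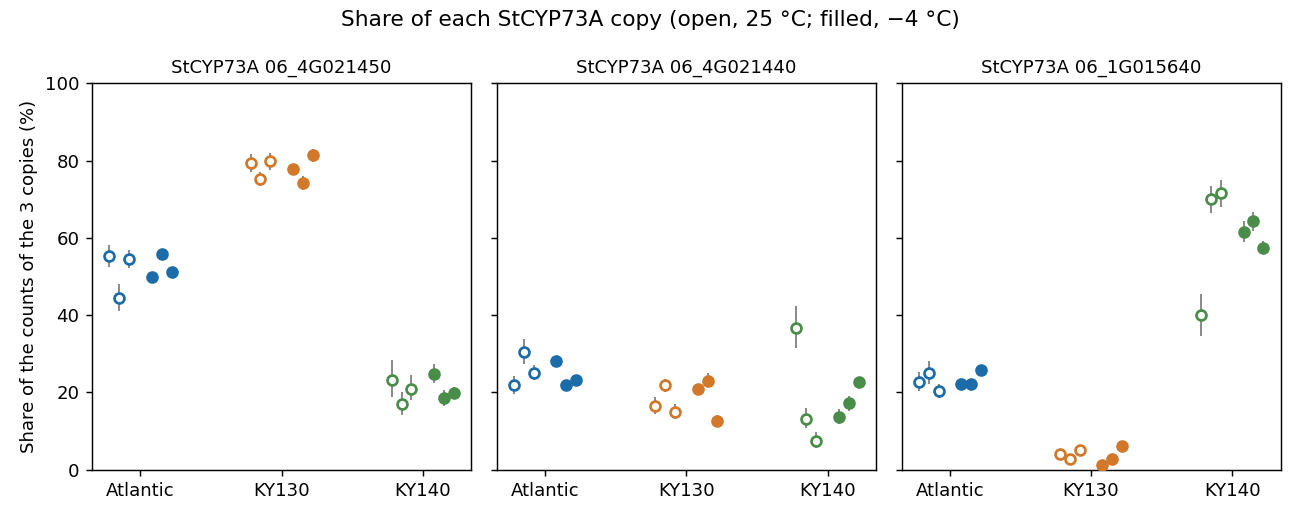
Share of each StCYP73A copy in the counts of the 3 copies (y axis, %), by cultivar, with open circles for 25°C, filled circles for −4°C and grey bars for the Wilson 95% interval of counting error in each library. The cultivars stand apart in the shares of 06_4G021450 and 06_1G015640, and open and filled circles overlap within Atlantic and KY130, while in KY140 the open circles of 06_1G015640 lie at 70.1 and 71.6%, above the filled ones, except for KY140 replicate 1 at 40%.

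The 3 copies divided the CYP73A counts differently in each cultivar. These shares were not used to choose the genes and do not depend on library scaling. The 3 copies themselves were chosen on Atlantic and KY140, so a copy expressed mainly in KY130 may be missing from the total. The shares are of counts, without gene lengths, so each is compared between cultivars and temperatures and not with the other copies. The share of 06_4G021450 was 44.5 to 55.9% in the 6 Atlantic libraries (median 52.9%), 74.2 to 81.4% in KY130 (median 78.7%) and 16.9 to 24.8% in KY140 (median 20.5%). No library of a cultivar overlapped another cultivar for this copy. The share of 06_1G015640 was 20.4 to 25.8% in Atlantic (median 22.5%), 1.2 to 6% in KY130 (median 3.4%) and 40 to 71.6% in KY140 (median 63%), also without overlap. Without KY140 replicate 1, the KY140 range of that copy over both temperatures was 57.5 to 71.6%. For 06_4G021440 the cultivars overlapped, with medians of 24.1% in Atlantic, 18.7% in KY130 and 15.4% in KY140, and KY140 replicate 1 alone reached 36.7%.

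Between temperatures, the mean share of 06_4G021450 was 51.5 ± 6% at 25°C and 52.3 ± 3.2% after cold in Atlantic. It was 78.3 ± 2.6 and 77.8 ± 3.6% in KY130, and 20.4 ± 3.3 and 21.1 ± 3.3% in KY140 (SD, n = 3). These differences in 06_4G021450 are smaller than the SD of either group. For 06_1G015640 the mean shares were 22.7 ± 2.3 and 23.3 ± 2.1% in Atlantic, 3.9 ± 1.1 and 3.3 ± 2.5% in KY130, and 60.5 ± 17.8 and 61.2 ± 3.5% in KY140. The near-equal KY140 means rest on KY140 replicate 1, which had 40%. The other untreated KY140 libraries had 70.1 and 71.6% of 06_1G015640, above all the treated libraries at 61.6, 64.4 and 57.5%. The same holds the other way for 06_4G021440 in KY140, where the untreated libraries other than replicate 1 had 13.1 and 7.4% and the treated ones 13.6, 17.2 and 22.6%. Whether these shares differ between temperatures in KY140 thus depends on that 1 library. With 3 libraries against 3, an exact permutation test cannot go below p = 0.1, so none was run on the shares.

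The difference between treated and untreated sums was accordingly made up of different counts in each cultivar. In KY130, 06_4G021450 made up 77.8% of the difference in mean CPM of the sum, 06_4G021440 made up 20.5% and 06_1G015640 made up 1.7%. In KY140 the single copy 06_1G015640 made up 58% and each gene of the pair 21%. In Atlantic 06_4G021450 made up 52.5%, 06_4G021440 made up 24% and 06_1G015640 made up 23.5%.

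**Figure D4:**
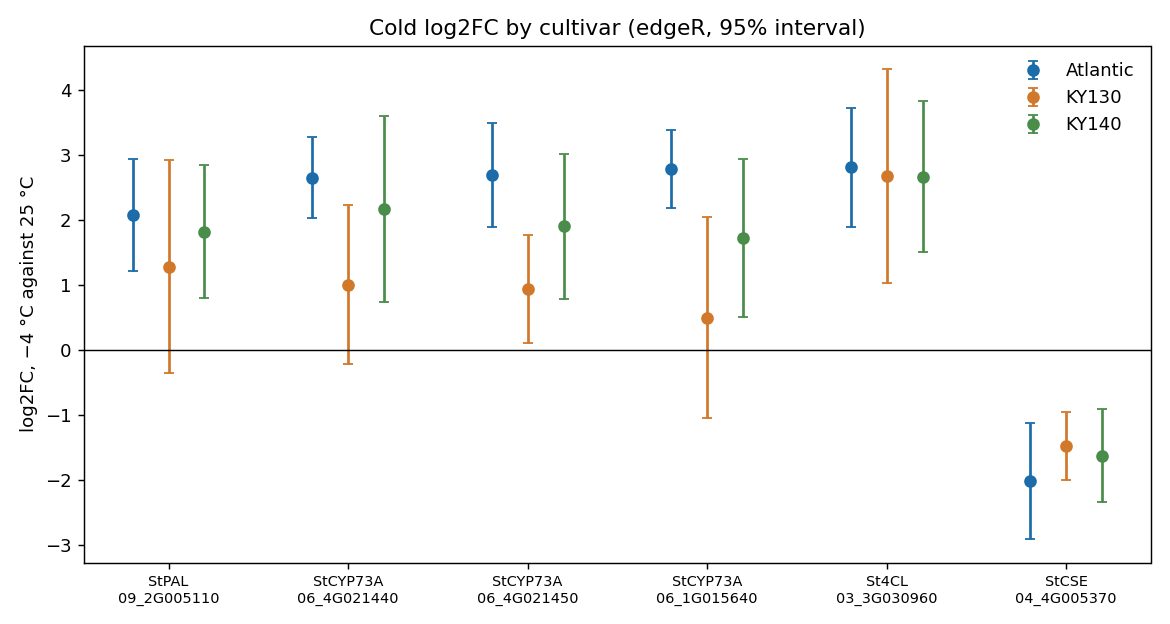
Log2FC of −4°C against 25°C (y axis) for the 4 genes and for St4CL and StCSE in each cultivar, as edgeR estimates from the 6 libraries of a cultivar with 95% intervals. In KY130 the intervals of StPAL, 06_4G021440 and 06_1G015640 include 0, and StCSE lies below 0.

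The question left to test was whether the 4 genes also changed with cold in KY130, whose values did not choose them. None of the 4 genes was called there at the study's criteria, a log2FC of at least 1 in size and a Benjamini-Hochberg FDR under 0.05 (edgeR's quasi-likelihood test). All 4 estimates were positive. StPAL had a log2FC of 1.28 (SE 0.725, 95% interval −0.36 to 2.91, edgeR adjusted p = 0.632). For 06_4G021440 the log2FC was 1.00 (SE 0.544, interval −0.23 to 2.23, edgeR adjusted p = 0.606), and for 06_4G021450 it was 0.93 (SE 0.365, interval 0.11 to 1.76, edgeR adjusted p = 0.382). For 06_1G015640 it was 0.49 (SE 0.687, interval −1.06 to 2.04, edgeR adjusted p = 0.905). The upper ends of all 4 intervals lie above the threshold of 1. The absence of a call thus does not show that these genes kept their level. At the same criteria, 4 of the 4 genes were called in Atlantic and 0 of the 4 in KY140, as a description. KY130 and KY140 therefore share the absence of a call, and it does not set KY130 apart. The share of all genes called in Atlantic and KY140 is not given here.

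The KY130 results are read against all genes tested in that cultivar. Of 48717 genes, 411 were called higher after cold (0.844%) and 41 were called lower (0.0842%), so few genes of any kind passed in this cultivar. At an unadjusted p under 0.05, 1 of the 4 genes (06_4G021450) and 10.8% of all genes passed, 5276 of 48717. DESeq2 also called 0 of the 4. All treated values exceeded all untreated values for 1 of the 4 genes (06_4G021450), against 10.2% of all genes, and all were lower for 0 of 4, against 10.2%. In Atlantic and KY140 all 4 genes had treated libraries above all untreated ones, against 14% and 13.3% of all genes, and nothing is read from those counts because the genes were chosen on those contrasts. Among all genes tested in KY130, the log2FC of StPAL stood at percentile 88.3 and that of 06_4G021440 at 84.2. That of 06_4G021450 stood at 83.1 and that of 06_1G015640 at 72. As a description, the percentiles in KY140 were 89.4, 92, 90.1 and 88.5 for the same genes in that order. In Atlantic they were 93.8, 96, 96.2 and 96.4.

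The KY130 estimates depended on CS-KY130 replicate 1, which had the lowest StPAL and the highest 06_4G021440 and 06_4G021450 of its group. Without it the log2FC of StPAL was 1.72, that of 06_4G021440 was 0.49 and that of 06_4G021450 was 0.52. The log2FC of 06_4G021440 was 1.61 without KY130 replicate 2, and that of 06_1G015640 was 0.05 without CS-KY130 replicate 3. None of the 4 genes was called in any of these fits. The part of its low number of detected genes in these values was not tested.

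As a description, the edgeR estimates in the cultivars that chose the genes were larger. In Atlantic the log2FC was 2.07 (SE 0.385) for StPAL, 2.65 (SE 0.279) for 06_4G021440, 2.69 (SE 0.355) for 06_4G021450 and 2.78 (SE 0.27) for 06_1G015640. In KY140 it was 1.82 (SE 0.453), 2.17 (SE 0.639), 1.90 (SE 0.498) and 1.72 (SE 0.54) for the same genes in that order, and for 06_4G021440 it was 1.28 without CS-KY140 replicate 3. In a joint fit of all 18 libraries, the Atlantic log2FC exceeded that of KY130 by 0.74 (SE 0.814) for StPAL, 1.58 (SE 0.79) for 06_4G021440, 1.69 (SE 0.608) for 06_4G021450 and 2.22 (SE 0.678) for 06_1G015640. The StPAL difference was smaller than its SE, and that of 06_1G015640 was the largest in units of SE. The log2FC of KY140 exceeded that of KY130 by 0.56 (SE 0.813), 1.20 (SE 0.792), 0.98 (SE 0.61) and 1.24 (SE 0.673) in the same order. Because the genes were picked for a response in Atlantic and KY140, the choice itself favours larger values in those cultivars. No test of these differences is given. The study's screen also asked for a higher log2FC in Atlantic than in KY140, so nothing is read from that order.

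Of the other phenylpropanoid genes, the study's text names 2 by identifier, St4CL (Soltu.Atl.03_3G030960), the ligase that follows CYP73A, and StCSE (Soltu.Atl.04_4G005370), an esterase that releases caffeic acid from caffeoyl shikimate on the way to lignin. In KY130, 0 of these 2 were called higher and 1 was called lower. St4CL had 2.89, 8.81 and 4.03 CPM at 25°C and 42.0, 49.96 and 7.82 CPM after cold, and CS-KY130 replicate 3 lay below KY130 replicate 2. Its log2FC was 2.67 (SE 0.728) with an edgeR adjusted p of 0.168, and DESeq2 gave an adjusted p of 0.00751. StCSE fell in KY130, from 218.4, 183.7 and 258.6 CPM to 77.0, 71.1 and 87.2 CPM, with a log2FC of −1.48 (SE 0.231, edgeR adjusted p = 0.0215) and no overlap. The StCSE log2FC stayed between −1.58 and −1.38 in all 13 alternatives. The call was kept in 7 of them, with a DESeq2 adjusted p of 1.13e-07, and it was lost in the edgeR fit of 18 libraries (adjusted p = 0.0534) and when any library other than KY130 replicate 2 was left out (0.0524 to 0.144).

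**Figure D5:**
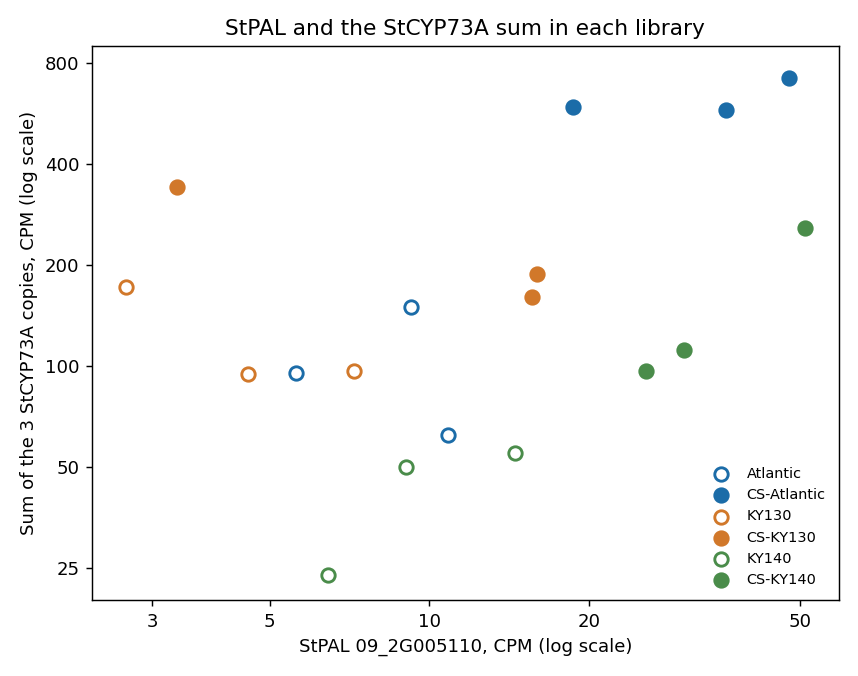
CPM of StPAL (x axis, log scale) against the sum of the 3 StCYP73A copies (y axis, log scale) in the 18 libraries, with open circles for 25°C and filled circles for −4°C. CS-KY130 replicate 1 lies at 3.34 CPM of StPAL and 341.8 CPM of the sum, and the KY140 libraries lie at lower sums than Atlantic libraries of like StPAL.

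The levels of StPAL and the CYP73A sum were set beside each other in every library. Across the 18 libraries, which share cultivar and treatment, Pearson's r of log2(CPM + 1) between them was 0.43, and with the mean of each cultivar removed it was 0.7. Over the 6 libraries of a cultivar it was 0.863 in Atlantic, 0.976 in KY140 and −0.137 in KY130, where CS-KY130 replicate 1 combined the highest sum with the lowest treated StPAL. All 4 genes were chosen for a rise with cold in Atlantic and KY140, so the choice favours a positive r there, and nothing is read from the values that include those cultivars. The gene pair 06_4G021440 and 06_4G021450 had an r of 0.873 across the libraries and 0.92 with cultivar means removed. Across the 18 libraries, r with StPAL was 0.829 for 06_1G015640, 0.38 for 06_4G021440 and 0.116 for 06_4G021450, and with cultivar means removed it was 0.819, 0.627 and 0.681. The order was another one within Atlantic (0.86, 0.896 and 0.842) and within KY140 (0.941, 0.868 and 0.959), and in KY130 the values were 0.691, −0.244 and −0.131. These values are descriptions over libraries that fall into groups.

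The gene with the pattern most like StPAL, among 58985 genes with a mean of at least 1 CPM, was Soltu.Atl.04_1G020630 (r = 0.95 over 18 libraries), while the gene at rank 20 had r = 0.869 and the median gene 0.077. Its mean level was 68.8 ± 9.44 CPM in Atlantic and 218.9 ± 50.9 CPM in CS-Atlantic, 55.1 ± 9.10 and 88.5 ± 27.7 CPM in KY130 and CS-KY130, and 79.5 ± 21.8 and 148.9 ± 30.2 CPM in KY140 and CS-KY140. It led the order for StPAL also by Spearman's rank correlation (0.969) and among genes with a mean of at least 10 CPM. For the CYP73A sum the closest gene was Soltu.Atl.08_1G017610 (r = 0.949, rank 20 at 0.923). Its mean went from 29.6 ± 7.33 to 185.8 ± 17.3 CPM in Atlantic, from 29.0 ± 3.95 to 65.0 ± 10.2 CPM in KY130 and from 4.79 ± 1.87 to 31.7 ± 23.6 CPM in KY140. By Spearman's rank correlation another gene came first for the sum (0.955 against 0.928), and with cultivar means removed yet another did (Soltu.Atl.08_2G007570, 0.969 against 0.947). Neither identifier is paired with a gene name.

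The genes with the next identifiers were read for context. The gene after StPAL (Soltu.Atl.09_2G005120) had mean levels of 5.41 and 18.7 CPM at 25°C and after cold in Atlantic, 9.68 and 35.7 CPM in KY130 and 2.65 and 39.2 CPM in KY140. In KY130 its libraries did not overlap, at 6.44 to 13.4 CPM and 18.8 to 51.6 CPM, with a log2FC of 1.87 (SE 0.468) and an edgeR adjusted p of 0.133. Its CS-KY130 mean was above its CS-Atlantic mean, with overlap, whereas StPAL had the lower mean in CS-KY130. The gene before StPAL (Soltu.Atl.09_2G005100) had 180.6 and 184.6 CPM in Atlantic, 299.4 and 274.7 CPM in KY130 and 240.6 and 448.2 CPM in KY140. The gene before 06_1G015640 (Soltu.Atl.06_1G015630) had 35.4 and 168.8 CPM in Atlantic, 14.3 and 33.8 CPM in KY130 (edgeR adjusted p = 0.663) and 34.7 and 78.2 CPM in KY140. Its CS-Atlantic libraries (152.4 to 189.3 CPM) lay above its CS-KY130 libraries (8.88 to 48.1 CPM), as those of 06_1G015640 did. The gene after 06_1G015640 (Soltu.Atl.06_1G015650) did not show this, with 2.95 to 10.6 CPM in CS-Atlantic and 3.37 to 13.0 CPM in CS-KY130. The genes on either side of the 06_4G021440 and 06_4G021450 pair had at most 8.94 CPM in any library.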

How the data were processed

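Leaf RNA of 6 groups (3 cultivars at 25°C or −4°C for 12 h, 3 libraries each) was enriched for poly(A) transcripts and sequenced by the authors with a protocol that mentions strand marking. The authors deposited raw counts per gene, whole numbers without normalization, for 114281 genes, of which 24264 have a number in place of an identifier. The aligner, the counting tool, the genome build and the treatment of reads that fit several gene copies were not given in the sources used here. Each group is 1 record in the labels, and the numbered library columns were matched to groups by name. The record titles call Atlantic rep1, KY130 rep2 and KY140 rep3 of a treatment. The replicate numbers used here are those of the columns. A second deposited table repeats the identifiers and was left out. In all, 0 of 114281 identifiers matched the RefSeq potato gene table, so no gene names, coordinates or sequences are given.

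Counts were tested with edgeR 4.0.16 (limma 3.58.1, R 4.3.3). For each cultivar, genes were kept by filterByExpr with a minimum count of 10, normalized by TMM and fitted with glmQLFit on its 6 libraries, and treated were compared with untreated libraries by glmQLFTest. Calls needed a log2FC of at least 1 in size and a Benjamini-Hochberg FDR under 0.05 over all genes tested. The 95% intervals use the SE and the total degrees of freedom of the test. These add the prior degrees of freedom that edgeR estimates across genes to the residual ones. Only the KY130 fit is read as a test, because the genes were chosen on Atlantic and KY140. For those cultivars the estimates and the number of the 4 genes called are given as a description. Levels are CPM with TMM factors over the 18 libraries, given as mean ± SD over 3 libraries. Shares are percent of the counts of the 3 CYP73A copies, with Wilson 95% intervals that cover counting error only. Likeness is Pearson's r of log2(CPM + 1), with a pseudocount of 1, for genes with a mean of at least 1 CPM. The tests were tested on simulated counts.

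The genes named are the 4 genes, the other 2 phenylpropanoid genes that the study's text names by identifier, the 1 gene most like StPAL and the 1 most like the CYP73A sum, and the genes with adjacent identifiers. The members and lists were chosen with earlier results of these data known. The p-values measure the spread between these libraries, which may not cover separate cold exposures. Alternatives tried were DESeq2 1.42.0, RLE or upper-quartile factors, other filters, 1 model over all 18 libraries, a replicate block, calls by FDR alone, each library left out in turn, other scalings of CPM, and for the likeness Spearman's rank correlation and a mean of at least 10 CPM. The sources used here name no sequencing batch.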

Additional observations from a re-analysis of the deposited data

How the results depend on the processing

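The number of the 4 genes called in KY130 was 0 under every alternative run: DESeq2, RLE and upper-quartile factors, no filter, a minimum of 10 counts in 3 libraries, the replicate block, 1 model over all 18 libraries, no fold threshold and each library left out. Over 13 alternatives the KY130 log2FC stayed positive, at 0.97 to 1.72 for StPAL (adjusted p 0.305 to 0.996), 0.49 to 1.61 for 06_4G021440 (0.22 to 1), 0.52 to 1.26 for 06_4G021450 (0.132 to 0.851) and 0.05 to 0.72 for 06_1G015640 (0.802 to 1). The number of genes called higher in KY130 was 411, 1647 by DESeq2, 1406 without a filter and 124 to 351 with a library left out. No source says that replicate numbers pair the libraries, and same-numbered KY130 libraries deviated with r of −0.057, 0.036 and 0.164. With the replicate block, 349 genes were called higher in KY130, and the log2FC was 1.09 for StPAL, 0.95 for 06_4G021440, 0.90 for 06_4G021450 and 0.42 for 06_1G015640. For St4CL in KY130 the call was made by DESeq2 and without a filter (adjusted p = 0.00111). With 1 library left out, chosen after seeing the data, the fold of the CYP73A sum was 5.15 to 8.02 in Atlantic, 1.44 to 2.41 in KY130 and 2.43 to 4.30 in KY140. No direction of the 4 genes was reversed in any alternative run. The cause of these shifts was not tested. At 35 to 110 counts in some KY130 libraries, StPAL and 06_1G015640 are the least precisely counted.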
